A study of Mus musculus with 13 samples.

Results

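Gene-dense windows are stretches of 1 Mb of the mouse genome (mm9, the NCBIM37 assembly) in which 25 or more protein-coding genes of GENCODE vM1 have their midpoint, with olfactory and vomeronasal receptor genes (symbols *Olfr* and *Vmn*) not counted. The grid began at position 0 of each of the 19 autosomes, and a window needed at least 50 called fragment ends. Of 2370 windows with that many ends, 145 were gene-dense, which is 6.12%. They held 5085 of the 19985 counted autosomal genes, or 25.4%. A further window with 33 genes, on Chromosome 4 at 42 to 43 Mb, had 18 fragment ends and was left out.

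The windows were read against the pericentromere-associated domains (PADs) that sat4C gave in 4 kinds of cells. Sat4C uses the major satellite repeat as the viewpoint of a chromosome conformation capture experiment, so that reads collect at genomic fragments that lay close to a chromocenter, the cluster of pericentromeric satellite DNA in the mouse nucleus. The groups were adult thymus of 3 male C57BL/6 mice (6 sets of reads, from a GAII and a HiSeq instrument for each mouse), the embryonic stem cell (ESC) line IB10 from strain 129/Ola with 3 replicates, neural precursor cells (NPCs) derived from these ESCs with 2, and astrocytes (ACs) derived from the NPCs with 2. Each kind of cell has 1 column of consensus calls, PAD or non-PAD, for 399232 fragment ends. The calls carry no read counts and no replicate columns, so the depth is unknown, no value has a replicate error, and no test between cell types was possible. Thymus differed from the other cells in strain, in source (a tissue against a culture) and in cell type at the same time, and these cannot be told apart. ESCs, NPCs and ACs came from a single line. No expression was measured in these libraries, so the cell labels were not checked against marker genes.

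Chromocenters are rich in constitutive heterochromatin. The authors found inactive chromatin preferentially around them in differentiated cells, and hardly or not at all in ESCs. By the density of DNase I hypersensitive sites, which mark open chromatin, PADs and non-PADs grew apart stepwise from ESCs to NPCs and ACs. Gene-dense chromatin is mostly GC-rich, replicates early and contains many housekeeping genes that every cell uses. It also contains tightly packed tandem families, such as keratin, histone, interferon and defensin genes. A window's PAD share is here the percentage of its fragment ends called PAD, and a window is called mostly PAD where that share is at least 50%.

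The unit behind each share is a fragment end, which begins at a restriction site. Ends near the transcription start of 4 genes are printed below in mm9, plus strand, with the MfeI site in capitals. The genes come from windows mostly PAD in all 4 kinds of cells, in ESCs and NPCs, in NPCs alone and in none. Each end is the closest that begins with an MfeI site and is at least 60 bases long. A called end of another kind may lie closer. The genes were picked with their calls known. *Ifnb1* encodes interferon beta, *Aldoc* an aldolase of astrocytes and other brain cells, *Eef2* a translation elongation factor, and *Cd3e* a subunit of the T cell receptor complex.
*Ifnb1* end, chr4:88166931-88166990: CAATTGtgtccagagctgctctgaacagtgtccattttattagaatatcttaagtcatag
*Aldoc* end, chr11:78135900-78135959: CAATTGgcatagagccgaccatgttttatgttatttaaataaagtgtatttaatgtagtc
*Eef2* end, chr10:80635559-80635618: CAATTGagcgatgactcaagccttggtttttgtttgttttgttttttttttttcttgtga
*Cd3e* end, chr9:44818321-44818380: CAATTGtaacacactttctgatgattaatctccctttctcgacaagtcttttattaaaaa

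The *Ifnb1* end, 1.77 kb from the start site, was called PAD in all 4 kinds of cells. The *Aldoc* end, 0.57 kb away, was PAD in ESCs and NPCs and non-PAD in ACs and thymus. The *Eef2* end, 3.82 kb away, was PAD in NPCs only. The *Cd3e* end, 0.648 kb away, was non-PAD in all 4, thymus included.

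The 150 bases before the same start sites are shown because the windows differ in CpG content. They are given 5′ to 3′ on the strand of the gene, with every CG in capitals.
*Ifnb1* promoter, chr4:88168699-88168848, minus strand: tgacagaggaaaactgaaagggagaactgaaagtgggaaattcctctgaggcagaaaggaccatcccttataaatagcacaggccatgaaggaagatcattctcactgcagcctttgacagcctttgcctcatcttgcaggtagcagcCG
*Aldoc* promoter, chr11:78136320-78136469, plus strand: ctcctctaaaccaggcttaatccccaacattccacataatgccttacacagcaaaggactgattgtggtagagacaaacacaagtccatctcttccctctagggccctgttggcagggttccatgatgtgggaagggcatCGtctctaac
*Eef2* promoter, chr10:80639226-80639375, plus strand: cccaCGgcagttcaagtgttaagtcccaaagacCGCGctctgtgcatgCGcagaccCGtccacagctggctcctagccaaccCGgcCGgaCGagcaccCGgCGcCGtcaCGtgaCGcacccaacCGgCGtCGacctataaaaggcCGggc
*Cd3e* promoter, chr9:44817674-44817823, minus strand: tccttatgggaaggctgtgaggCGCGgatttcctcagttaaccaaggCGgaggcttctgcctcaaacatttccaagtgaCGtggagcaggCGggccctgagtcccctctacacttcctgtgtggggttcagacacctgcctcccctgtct

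*Ifnb1* and *Aldoc* have 1 CG each in this stretch, *Cd3e* has 5 and *Eef2* has 17. CG reads the same on both strands, and 91.0% of the 19982 promoters of counted genes held at least 1, as did 91.7% of those in gene-dense windows. The median was 7 in gene-dense windows and 7 over all counted genes. Windows that were mostly PAD in all 4 kinds of cells had promoters with a median of 3 CG over 158 genes, from 5 windows. The median was 8 over the 1783 genes of windows mostly PAD in NPCs alone, and 7 over the 1334 genes of windows mostly PAD nowhere. For windows mostly PAD in ESCs and NPCs, the pattern of *Aldoc*, it was 8 over 940 genes. ESCs with ACs and NPCs with ACs had a median of 1 (25 and 105 genes). Thymus alone and NPCs with thymus had 2 (94 and 26 genes). The median was 5 for ESCs with NPCs and ACs, 7 for ESCs alone and 10 for ESCs with NPCs and thymus. Genes of the same window are not independent.

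Gene-dense windows lay mostly outside PADs in thymus and ACs and mostly inside them in NPCs, with ESCs between. In thymus, 10 of the 145 (6.90%) were mostly PAD, where 48.4% of all windows were. In ACs 25 were mostly PAD (17.2%, against 50.7% of all windows), in ESCs 51 (35.2%, against 53.8%), and in NPCs 102 (70.3%, against 73.5%). The share in NPCs is thus close to that of all windows, and that in thymus is far below it. From ESCs through NPCs to ACs the share of gene-dense windows rose and then fell. It did not follow the stepwise order that the authors saw by DNase I sites, which are another measure. The median PAD share of a gene-dense window was 0% in thymus and in ACs, 27.5% in ESCs and 89.8% in NPCs. The medians over all windows were 45.6% in thymus, 51.3% in ACs, 56.2% in ESCs and 86.5% in NPCs. In thymus, 119 gene-dense windows (82.1%) had no PAD end at all, which held for 34.5% of all windows.

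The same order appeared gene by gene. Of the 5085 counted genes, 298 (5.86%) had their midpoint in a PAD of thymus, where 22.2% of all counted autosomal genes did. The count was 851 in ACs (16.7%, against 31.5%), 1762 in ESCs (34.7%, against 44.2%) and 3479 in NPCs (68.4%, against 69.2%). In ESCs but not in thymus, 1559 of these genes were in PADs (30.7%, close to the 27.6% of all counted autosomal genes), and 95 were in thymus but not in ESCs (1.87%, against 5.58%). The windows also held 100 olfactory and vomeronasal receptor genes that the rule left out, of which 40 were in PADs in thymus and 50 in ESCs.

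The PAD share fell with gene count in thymus, ACs and ESCs, and no such fall was seen in NPCs. Of the windows without a counted gene, 94.7% were mostly PAD in thymus, against 84.4% in ACs, 72.5% in ESCs and 73.8% in NPCs. Among windows with 10 to 24 genes these values were 18.4%, 29.3%, 43.2% and 74.7%. Within the gene-dense windows, thymus went from 9.52% of the 84 windows with 25 to 34 genes to 4.35% of the 46 with 35 to 49 and 0% of the 15 with 50 or more. ESCs went from 39.3% to 28.3% and 33.3% over the same classes, ACs from 20.2% to 13.0% and 13.3%, and NPCs from 71.4% to 65.2% and 80.0%. The class with most genes thus did not have the lowest share in ESCs or ACs, and had the highest in NPCs. Windows at the limit of the rule were alike in thymus: 3 of the 20 windows with 24 genes were mostly PAD there, and 2 of the 11 with 25 genes. In ESCs these counts were 8 and 5, in NPCs 11 and 5, and in ACs 4 and 2.

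**Figure D1:**
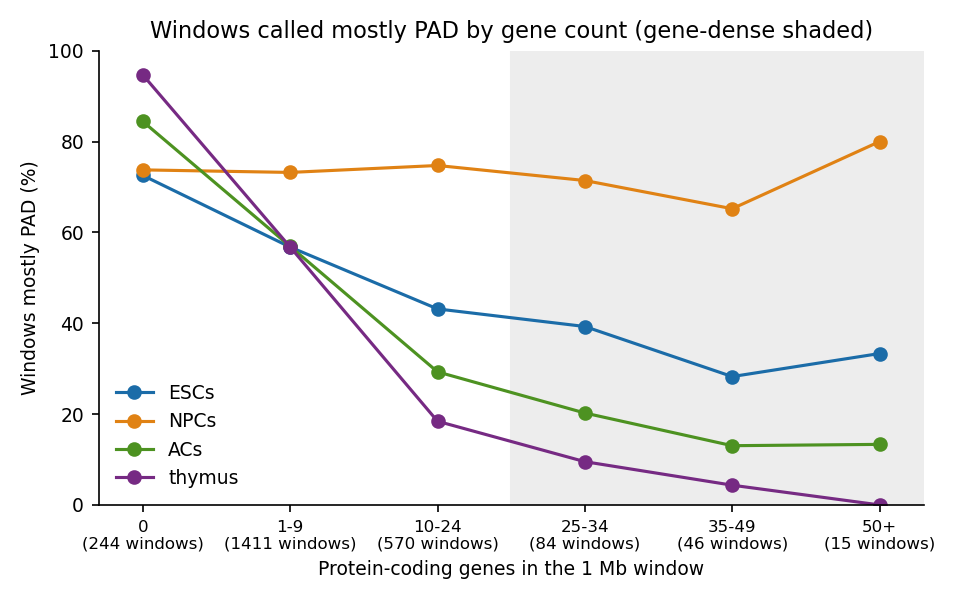
Percentage of 1 Mb windows that were mostly PAD (y axis) by the number of counted protein-coding genes in the window (x axis), 1 line for each kind of cell, with the gene-dense classes shaded. Thymus drops from 94.7% without genes to 0% with 50 or more, while NPCs stay between 65.2% and 80.0%.

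Over the 4 kinds of cells, 5 gene-dense windows (3.45%) were mostly PAD in all, where 30.2% of all windows were. In contrast, 38 (26.2%) were mostly PAD in none, against 12.9% of all windows. Another 50 (34.5%) were mostly PAD in NPCs alone, against 17.6%. The next patterns were ESCs with NPCs (26 windows), ESCs with NPCs and ACs (17) and thymus alone (3). The other 6 windows had 5 further patterns. Of the 51 windows mostly PAD in ESCs, 49 were so in NPCs too, and the exceptions were windows on Chromosome 3 at 93 to 94 Mb and 96 to 97 Mb. Of all windows, 1275 were mostly PAD in ESCs. Those not so in NPCs were 25 with ESCs alone, 14 with ACs, 35 with thymus and 76 with both. Most shares were extreme: in thymus 24 of the 145 windows lay between 0 and 100%, in ACs 44, in NPCs 60 and in ESCs 68. These were 16.6%, 30.3%, 41.4% and 46.9%, against 37.8%, 45.9%, 49.3% and 55.4% of the other windows.

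**Figure D2:**
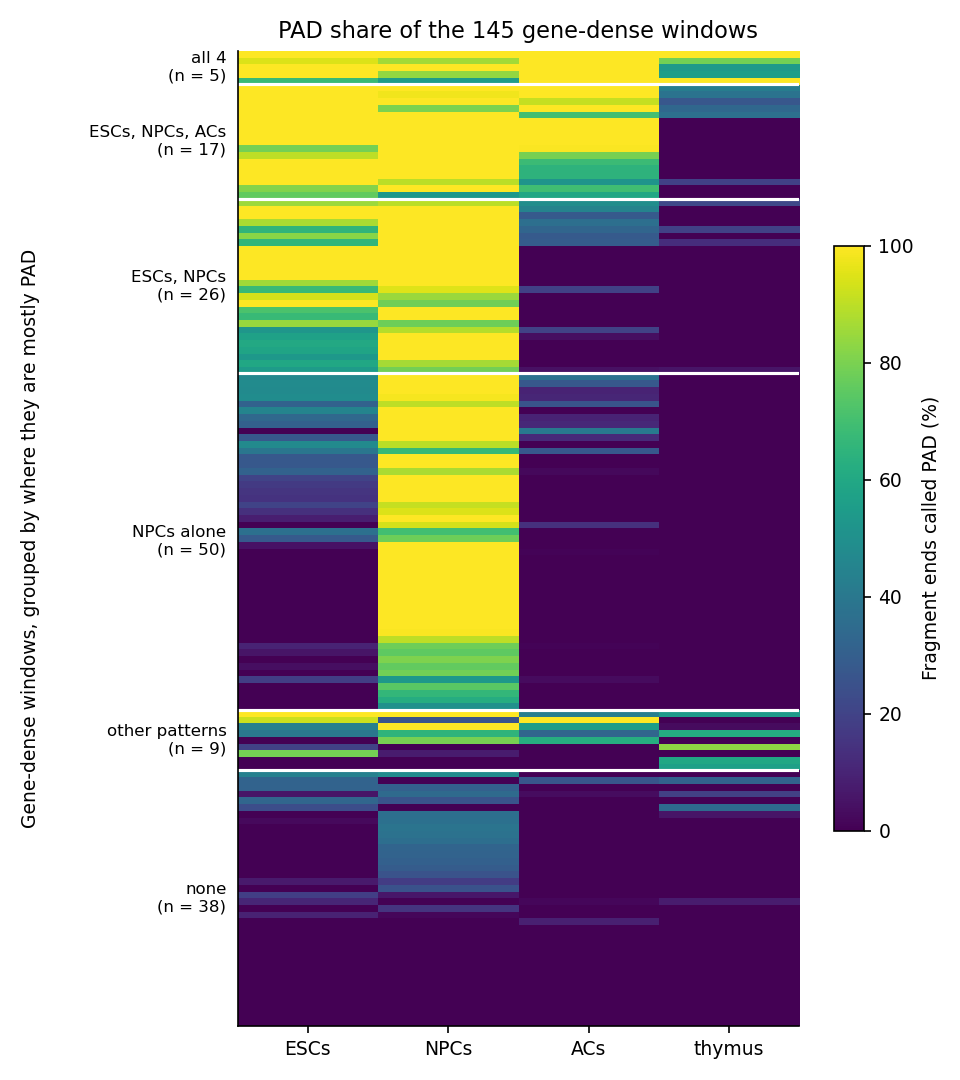
Each row is 1 of the 145 gene-dense windows and each column a kind of cell, with the colour giving the percentage of fragment ends called PAD. Rows are grouped by the cells in which the window was mostly PAD, and the thymus column is at 0% for 119 windows.

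The PAD share was higher in ESCs than in thymus in 87 gene-dense windows, equal in 50 and higher in thymus in 8. These were 60%, 34.5% and 5.52%, against 40.4%, 26.9% and 32.8% of the other windows. The mean difference was 30.5 points, against 3.53 points in the other 2225 windows. ESCs were at least 50 points above thymus in 43 gene-dense windows (29.7%), where 14.7% of all windows were, and thymus at least 50 points above ESCs in 3 (2.07%, against 9.58%). By the limit of 50% of ends, 45 windows were mostly PAD in ESCs and not in thymus (31.0%, against 16.6% of the other windows). It was the other way in 4 (2.76%, against 12.7%). In 15 windows every end was PAD in ESCs and none was in thymus, and in 0 windows was it the reverse. The bin of the difference between ESCs and thymus centered on 100 points held 12.4% of gene-dense windows and 3.37% of the others.

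Several windows had only PAD ends in ESCs and none in thymus. On Chromosome 11 at 69 to 70 Mb, 59 genes that include *Trp53*, the p53 tumour suppressor, *Polr2a*, the large subunit of RNA polymerase II, and *Dlg4*, a postsynaptic scaffold, were in a window with a PAD share of 0% in thymus, 100% in ESCs, 68.1% in ACs and 100% in NPCs. On Chromosome 3 at 95 to 96 Mb, with *Setdb1*, a histone H3 lysine 9 methyltransferase, and *Mcl1*, an inhibitor of apoptosis, the shares were 100% in ESCs, 78.4% in NPCs and 0% in ACs and thymus. The window of *Aldoc* and *Foxn1*, a regulator of thymic epithelium, on Chromosome 11 at 78 to 79 Mb was at 100% in ESCs and NPCs and at 0% in ACs and thymus. So were 2 neighboring windows on Chromosome 7, from 28 to 30 Mb, with the kinase gene *Akt2*, the deacetylase gene *Sirt2* and the calcium channel gene *Ryr1*. ACs and thymus were thus without PAD ends in all of these but the window of *Trp53*, where ACs were mostly PAD.

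Other windows with only PAD ends in ESCs and NPCs and none in thymus ranged from 0 to 100% in ACs. On Chromosome 6 at 48 to 49 Mb the *Gimap* genes, GTPases of lymphocytes, lay in a window at 100% in ACs, and so did *Prdx1*, a peroxiredoxin, and *Mutyh*, a DNA glycosylase, on Chromosome 4 at 116 to 117 Mb. The window of *Vcp*, an ATPase of protein turnover, and *Tln1*, the adhesion protein talin, on Chromosome 4 at 43 to 44 Mb had 64.7% in ACs. The chemokine genes *Ccl27a* and *Ccl21b* on Chromosome 4 at 41 to 42 Mb lay in a window at 0% in ACs. In all of these the thymus share was 0%.

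The window of the class III region of the major histocompatibility complex (MHC), on Chromosome 17 at 35 to 36 Mb, had 67 genes and shares of 93.5% in ESCs, 84.9% in NPCs and 0% in ACs and thymus. *Tnf*, which encodes a cytokine, *Hspa1a*, a heat shock protein, and *Ehmt2*, the histone methyltransferase G9a, lay in its ESC PAD of 516 kb. *Pou5f1*, the pluripotency factor Oct4, lay in an ESC non-PAD of 216 kb with 6 fragment ends, set between PADs of 516 kb and 402 kb, and in a PAD in NPCs. The neighboring window at 34 to 35 Mb, with the MHC class II genes, *Tap1* and *Psmb8* of antigen processing, had 4.72% in ESCs, 100% in NPCs and 0% in ACs and thymus. Adjacent windows of the same gene complex thus had nearly opposite calls in ESCs and the same in ACs and thymus.

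Thymus stood above ESCs in few windows. On Chromosome 14 at 51 to 52 Mb the share was 82.9% in thymus, 19.8% in ESCs and 0% in NPCs and ACs. This window holds the ribonuclease A family, with *Ang* and *Rnase4*, and *Apex1*, an endonuclease of base excision repair, and was split in thymus into a PAD of 1458 kb, a non-PAD of 119 kb with 9 ends and a PAD of 222 kb. On Chromosome 7 at 19 to 20 Mb, 10 *Psg* genes, which encode glycoproteins of the placenta, were in a thymus PAD of 1818 kb and in no PAD of the other cells, and the window had 56.8% in thymus and 0% elsewhere. The *Pramel* and *Oog* window on Chromosome 4 at 143 to 144 Mb, with families used in germ cells and early embryos, had 59.4% in thymus and 0% elsewhere. The stefin window on Chromosome 16 at 36 to 37 Mb had 61.6% in thymus, 39.7% in ESCs, 64.9% in NPCs and 32.5% in ACs.

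NPCs stood apart from the ACs derived from them. The PAD share was higher in NPCs in 109 gene-dense windows, equal in 26 and higher in ACs in 10. These were 75.2%, 17.9% and 6.90%, against 50.02%, 25.03% and 24.94% of the other windows. The mean difference was 49.7 points, against 17.5 in the other windows. NPCs were at least 50 points above ACs in 75 windows (51.7%, against 24.9% of all windows), and ACs above NPCs by that much in 1 (0.690%, against 4.51%). In 31 windows every end was PAD in NPCs and none in ACs. The bin of this difference centered on 100 points held 26.2% of gene-dense windows and 8.67% of the others. Both windows on Chromosome 10 from 79 to 81 Mb, with 61 and 59 genes, were at 100% in NPCs and at 0% in ESCs, ACs and thymus. They hold *Stk11*, a kinase upstream of AMPK, *Tcf3*, the E2A transcription factor, *Mbd3*, a subunit of the NuRD complex, and *Eef2*, within an NPC PAD of 11524 kb. The window of *Notch1* on Chromosome 2 at 26 to 27 Mb had the same values, and that of the glutamate receptor gene *Grin1* at 25 to 26 Mb had 27.6% in ESCs and 100% in NPCs. Windows of Chromosome 1 at 74 to 75 Mb, with *Wnt6* and *Ihh*, and of Chromosome 2 at 32 to 33 Mb and 180 to 181 Mb were likewise at 100% in NPCs and 0% in ACs and thymus, with 8.49%, 0% and 17.0% in ESCs. The single window with ACs more than 50 points above NPCs was that of the filaggrin gene *Flg* on Chromosome 3 at 93 to 94 Mb, with 0% in thymus, 92.1% in ESCs, 100% in ACs and 25.8% in NPCs. The annotation enters *Flg* 5 times in this window, which would otherwise fall short of 25 genes. A zinc finger cluster on Chromosome 13 at 67 to 68 Mb was at 0% in NPCs, with 32.0% in ESCs, 26.6% in ACs and 31.2% in thymus.

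Across windows the NPC calls went less with thymus than the others did. Over the 145 windows Pearson's r of the PAD shares was 0.67 between ESCs and ACs, 0.49 between ESCs and NPCs, 0.47 between ACs and thymus, 0.31 between NPCs and ACs, 0.28 between ESCs and thymus and -0.05 between NPCs and thymus. These values describe windows of the same genome that share base composition and domains, and carry no test. In the other 2225 windows r was 0.48 between ESCs and thymus and 0.06 between NPCs and thymus.

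**Figure D3:**
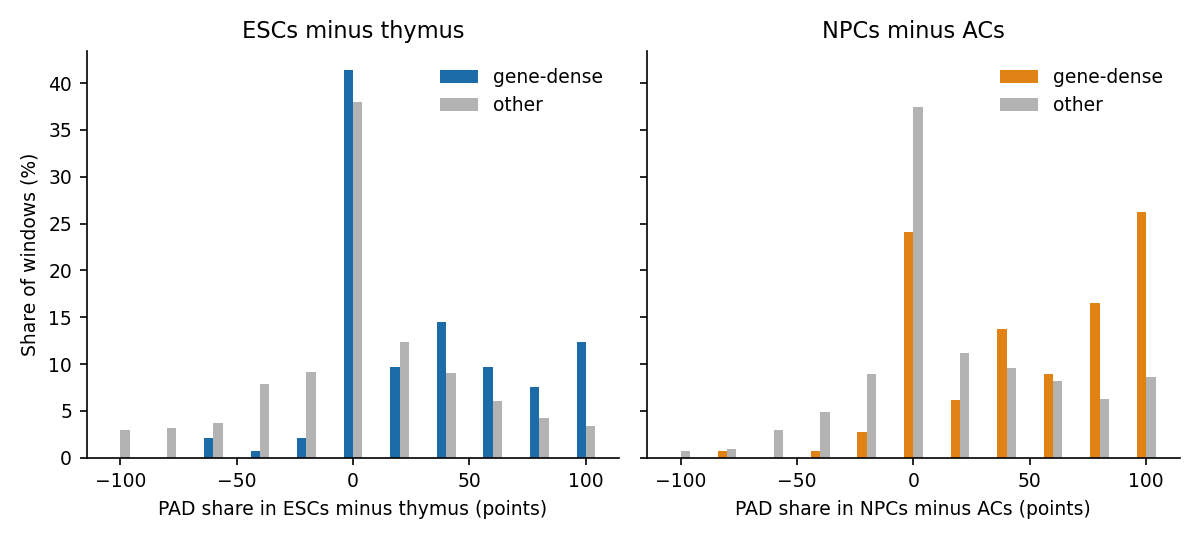
Difference in PAD share between ESCs and thymus (left) and between NPCs and ACs (right) in percentage points, in bins 20 points wide, as the percentage of gene-dense windows (coloured bars) and of other windows (grey bars). Gene-dense windows fall mainly at or above 0 in both panels, with means of 30.5 and 49.7 points.

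Between ESCs and ACs the windows moved mainly toward fewer PAD ends in ACs. ESCs were at least 50 points above ACs in 23 windows (15.9%, against 7.72% of all windows) and ACs above ESCs in 1 (0.690%, against 5.61%). That window, on Chromosome 11 at 99 to 100 Mb, had the most genes of all, 79, of which 21 were keratin genes and 22 genes of keratin-associated proteins of skin and hair. Its share was 0% in thymus, 0% in ESCs, 62.4% in ACs and 79.6% in NPCs. The next window, with *Krt14* and *Stat3*, had 93.5% in NPCs, 13.9% in ACs and 0% in ESCs and thymus. The window of *Ly6h* on Chromosome 15 at 75 to 76 Mb went from 0% in ESCs to 100% in NPCs and 41.3% in ACs. The *Ms4a* window on Chromosome 19 at 11 to 12 Mb, with *Ms4a1*, the B cell antigen CD20, had 0% in thymus, 79.1% in ESCs, 99.3% in ACs and 100% in NPCs. ACs were at least 50 points above thymus in 18 windows (12.4%, against 9.16%) and thymus above ACs in 3 (2.07%, against 7.68%). All of these 3 were the ribonuclease, *Psg* and *Pramel* windows.

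The windows with the highest mean PAD share over the 4 kinds of cells included several of tandem gene families. The type I interferon window on Chromosome 4 at 88 to 89 Mb, with 38 genes that include *Ifnb1*, the *Ifna* genes and the cell cycle inhibitors *Cdkn2a* and *Cdkn2b*, was at 100% in each kind of cell, the only gene-dense window of which that was true. Its PADs spanned 7457 kb in thymus, less in ESCs (4942 kb) and ACs (4293 kb) and more in NPCs (10941 kb). The clustered protocadherins, cell adhesion proteins of neurons, on Chromosome 18 at 37 to 38 Mb had 78.6% in thymus, 94.9% in ESCs, 100% in ACs and 86.3% in NPCs. The histone windows of Chromosome 13 had 100% in ESCs and ACs, 83.8% and 97.8% in NPCs, and 56.1% and 37.9% in thymus, at 21 to 22 Mb and 23 to 24 Mb. In thymus the window at 23 to 24 Mb was cut into 4 domains, and *Hist1h1c* and *Hfe*, an iron regulator, lay in a PAD of 71.9 kb with 14 ends.

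The alpha-defensin window, on Chromosome 8 at 22 to 23 Mb, encodes antimicrobial peptides of the gut and had 100% in ACs and thymus, 67.2% in ESCs and 55.2% in NPCs. It had 58 fragment ends, the fewest of the 145. All 12 *Defa* genes were PAD in ACs and thymus, and 11 of them lay in an ESC non-PAD of 699.5 kb with 19 ends. Calls there thus rest on few ends. The window beside it, at 23 to 24 Mb, had 4 beta-defensin genes, 138 ends, and shares of 100% in ESCs, NPCs and ACs and 53.6% in thymus. The paired immunoglobulin-like receptor window of Chromosome 7 at 3 to 4 Mb, near the centromere, had 100% in ESCs and ACs, 80.2% in NPCs and 33.3% in thymus. Windows with *Slc22a6*, a kidney transporter of organic anions (Chromosome 19 at 8 to 9 Mb), the *Cyp4f* and zinc finger genes (Chromosome 17 at 33 to 34 Mb) and the *S100a* calcium binding proteins (Chromosome 3 at 90 to 91 Mb) were at 100% in ESCs and NPCs, 100%, 91.2% and 70.1% in ACs, and 42.5%, 27.2% and 36.4% in thymus.

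At the other end, 15 gene-dense windows (10.3%) had no PAD end in any kind of cell, against 3.12% of all windows. Those with most genes were 2 neighboring windows of Chromosome 17, from 24 to 26 Mb, with 50 and 49 genes, among them *Tsc2* and *Pkd1*, the genes of tuberous sclerosis and polycystic kidney disease. The window of *Cd3e*, *Cd3d* and *Cd3g* on Chromosome 9 at 44 to 45 Mb, with 40 genes, was 1 of them. Others held *Apoe*, the main lipid carrier secreted by astrocytes (Chromosome 7 at 20 to 21 Mb), *Msi1*, an RNA binding protein of neural precursors (Chromosome 5 at 115 to 116 Mb), *Lin28a*, an RNA binding protein of ESCs (Chromosome 4 at 133 to 134 Mb), and *Erbb2* with *Neurod2*, a neuronal factor (Chromosome 11 at 98 to 99 Mb). Windows of Chromosome 2 at 155 to 156 Mb, Chromosome 8 at 86 to 87 Mb and Chromosome 9 at 106 to 107 Mb complete the 10 with most genes. Of the windows with over 50 genes, that of *Bax* and *Rpl13a* on Chromosome 7 at 52 to 53 Mb came near, with 25.7% in NPCs and 0% elsewhere. The *Wfdc* and *Svs* protease inhibitor and seminal vesicle genes on Chromosome 2 at 164 to 165 Mb had 43.7% in ESCs, 48.4% in NPCs and 0% in ACs and thymus, and the window of *Mag*, a myelin glycoprotein, on Chromosome 7 at 31 to 32 Mb had 47.8%, 89.6%, 0% and 0%. Each of the 4 kinds of cells thus had at least 1 typical gene in a window without a PAD end. These genes come from windows picked for that trait, and other markers went the other way. *Cd4*, *Pou5f1*, *Notch1* and *Gfap* were in PADs of NPCs.

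Marker genes inside the windows were few. In thymus 0 of them were in a PAD, beside 5.86% of all genes in the windows, so nothing about the markers is read from that count. Of all genes in the windows, 34.7% were in PADs of ESCs, 68.4% of NPCs and 16.7% of ACs. The lists below are too short to be told from these shares, and nothing about the markers is read from them either. Of 6 T cell genes in gene-dense windows, *Cd4* and *Cd5* were in PADs of ESCs and NPCs, and *Lck* and the 3 CD3 genes in none. Of 4 pluripotency genes, *Pou5f1* and *Tdgf1* were in PADs of NPCs, and *Klf2* and *Lin28a* in none. Of 3 neural precursor genes, *Notch1* was in a PAD of NPCs, and *Nes* and *Msi1* in none. Of 4 astrocyte genes, *Gfap*, *S100b* and *Aldoc* were in PADs of NPCs, *Aldoc* also in ESCs, and none was in a PAD of ACs. Of 5 neuronal genes, *Dlg4*, *Grin1* and *Tubb3* were in PADs of ESCs, and *Dlg4*, *Grin1* and *Stx1a* in PADs of NPCs. Of 7 housekeeping genes, *Gusb*, *Polr2a* and *Tubb5* were in PADs of ESCs, *Gusb*, *Polr2a*, *Eef2* and *Atp5b* in PADs of NPCs, and *Polr2a* alone in one of ACs.

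Gene families went with their windows. For scale, 34.7% of all genes in the windows were in PADs of ESCs, 68.4% of NPCs, 16.7% of ACs and 5.86% of thymus. The epidermal differentiation complex, which serves the outer layers of skin, had 57 annotation entries, with each of the repeated entries of *Flg* counted. All 57 were in PADs of ESCs, 53 of NPCs, 45 of ACs and 13 of thymus. Of 58 clustered histone genes, 56 were in PADs of ESCs, 47 of NPCs and ACs and 27 of thymus. The 9 histone genes of Chromosome 3 at 96 to 97 Mb were PAD in ESCs alone. The *Hoxc* genes, 9 in a window of Chromosome 15, were all in PADs of ESCs and NPCs, and the 10 *Hoxb* genes of a window of Chromosome 11 in none. All 14 type I interferon genes were in PADs in each kind of cell, and all 25 kallikrein genes, serine proteases of Chromosome 7, in none. Of 11 chemokine genes, 9 were in PADs of ESCs, 8 of NPCs and 0 of ACs and thymus. Most families are a single array or a few, so their genes share domains and are not independent.

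Families that are spread over many windows were not all close to the gene-dense background. Of 27 genes of cytosolic ribosomal proteins in 23 windows, 8 were in PADs of ESCs (29.6%), 15 of NPCs (55.6%), 2 of ACs (7.41%) and 0 of thymus. Of 29 mitochondrial ribosomal protein genes, 9, 22, 2 and 0 were. Of 19 proteasome genes, 8, 14, 2 and 0 were. Zinc finger genes lay higher in ESCs, ACs and thymus and lower in NPCs, with 84 of 148 in PADs of ESCs (56.8%), 95 of NPCs (64.2%), 49 of ACs (33.1%) and 21 of thymus (14.2%), and solute carrier genes had 42, 72, 22 and 7 of 93. These counts stand beside 34.7%, 68.4%, 16.7% and 5.86% of all genes in the windows.

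**Figure D4:**
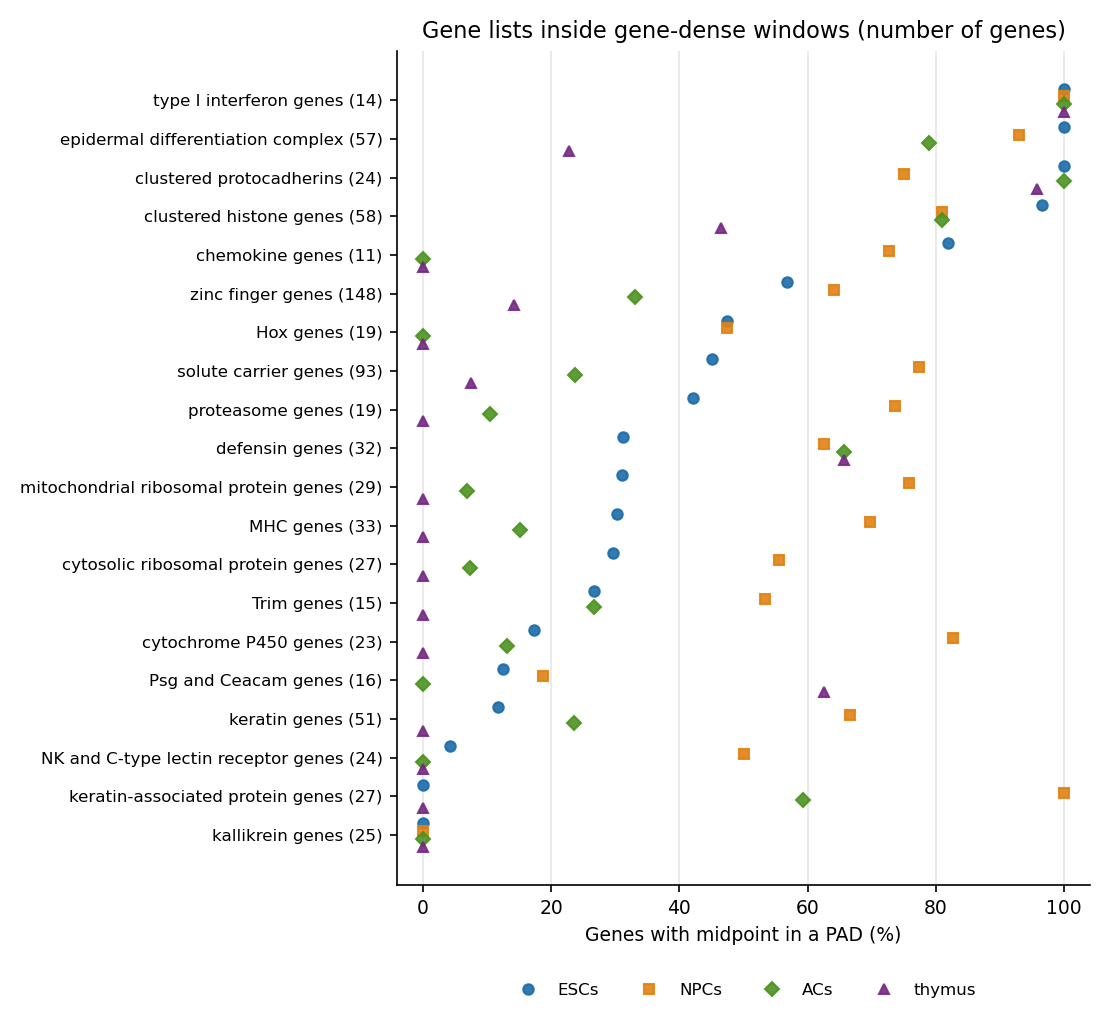
Percentage of the genes of each list with their midpoint in a PAD (x axis) among those in gene-dense windows, for lists with at least 10 such genes (number in brackets), with 1 symbol for each kind of cell and symbols set apart vertically to keep them visible. Thymus is at 0% for 12 of the 20 lists, and only the interferon and kallikrein lists have the same value in all 4.

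Gene-dense windows differed from the rest in sequence as well. The median GC content was 47.1%, against 41.8% over all windows, and the median CpG density 12.6 per kb against 8.13. The median gene length was 9.94 kb, and that over all windows with genes 28.4 kb. The median window had 113 fragment ends, and 159 over all windows, so shares in gene-dense windows rest on fewer ends. Among gene-dense windows, those mostly PAD had a lower median GC content than the others in ESCs (45.6% and 47.7%), ACs (43.9% and 47.6%) and thymus (41.7% and 47.3%), and in NPCs the values were 47.0% and 47.5%.

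Within classes of GC content the comparison with other windows took another form. At 44 to 46% GC, 18 of 26 gene-dense windows were mostly PAD in ESCs (69.2%) and 38.7% of 297 other windows, and in thymus 3.85% and 6.06%. At 42 to 44% GC, 6 of 8 gene-dense windows (75%) and 43.4% of other windows were mostly PAD in ESCs. At 46 to 48% GC the ESC values were 21.7% of 46 and 24.03% of 154, and at 48% or more 18.9% of 53 and 4.71% of 85. Below 42% GC, 7 of 12 gene-dense windows (58.3%) and 70.4% of other windows were. The lower share of gene-dense windows in ESCs over the whole genome was therefore not seen at 42 to 46% GC or at 48% or more, where the gene-dense windows had the higher share. In ACs the gene-dense windows had the higher share at 42 to 44% GC (87.5%, 7 of 8, and 32.2% of the others) and at 44 to 46% (26.9% and 21.9%). The AC share was the lower below 42% (58.3% and 76.1%), at 46 to 48% (6.52% and 12.99%) and at 48% or more (1.89% and 2.35%). In thymus the gene-dense windows had the lower share below 42% GC (58.3%, 7 of 12, and 80.7% of the others). At 42 to 44% GC the thymus values were 1 of 8 windows and 25.5% of the others. From 44% GC up few windows of either kind were mostly PAD in thymus. These were 1 of 26 and 18 of 297 at 44 to 46%, and 1 of 46 and 2 of 154 at 46 to 48%. At 48% or more they were 0 of 53 and 1 of 85. The large gap in thymus over the whole genome was thus not seen from 44% GC up. In NPCs all values lay between 65.2% and 80.8%. GC content, gene count and fragment ends move together across windows, and their parts were not tested.

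**Figure D5:**
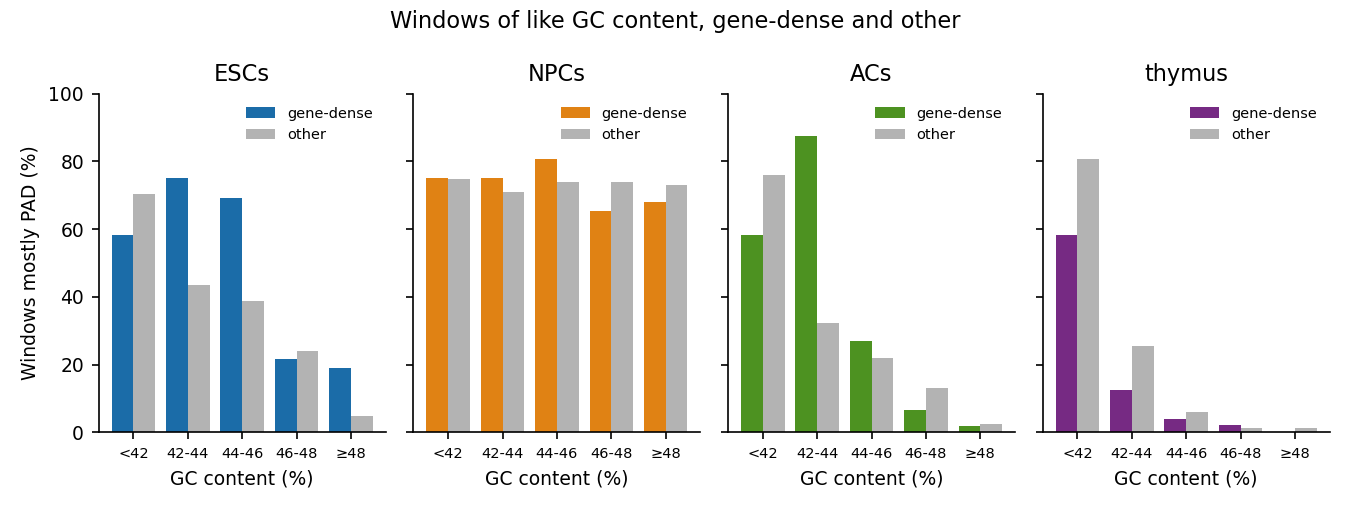
Percentage of windows that were mostly PAD (y axis) in classes of GC content (x axis), for gene-dense windows (coloured bars) and other windows (grey bars), with 1 panel for each kind of cell. The gene-dense classes hold 12, 8, 26, 46 and 53 windows from low to high GC, and in thymus the coloured bars fall from 58.3% to 0%.

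The windows were unevenly placed. Chromosome 7 had 18, Chromosome 11 had 17 and Chromosome 8 had 12, and 55 of the 145 had no gene-dense neighbor. The longest run, of 7 windows, was on Chromosome 11 from 96 to 103 Mb. Its thymus share was 0% in every window, its ESC share rose above 50% only in the window at 102 to 103 Mb (67.4%), and its NPC share ranged from 0% at 98 to 99 Mb to 100% at 102 to 103 Mb. Of 56 pairs of adjacent gene-dense windows, 53 had the same status in thymus, 44 in ESCs, 43 in ACs and 42 in NPCs. Both windows were mostly PAD in 1 pair in thymus, 16 in ESCs, 3 in ACs and 31 in NPCs. The thymus count thus goes with how few windows were mostly PAD there. Adjacent pairs over all windows were not counted.

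The lower PAD share was found chromosome by chromosome. The mean share of gene-dense windows was below that of the other windows of the same chromosome on 18 of 19 autosomes in thymus, on 17 in ACs, on 16 in ESCs and on 10 in NPCs. The exception in thymus was Chromosome 18, whose single gene-dense window is that of the protocadherins. Only 7 of the 145 windows began in the first 10 Mb, next to the centromere. Of these, 0 were mostly PAD in thymus, 2 in ACs, 4 in ESCs and 7 in NPCs. Of the 117 other windows of the first 10 Mb, 76.9%, 70.1%, 70.9% and 78.6% were. The 7 windows are a run of 2 on Chromosome 7 and a run of 5 on Chromosome 19, so they share domains. Beyond 10 Mb, 10 of 138 were mostly PAD in thymus (7.25%), against 49.7% of the other windows there.

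The domains that crossed gene-dense windows differed in size between cells. In thymus these windows touched 75 non-PADs with a median size of 5356 kb and 25 PADs with a median of 748 kb. In NPCs they touched 98 PADs with a median of 1889 kb and 80 non-PADs with a median of 656 kb. In ESCs the medians were 853 kb for 89 PADs and 1481 kb for 106 non-PADs, and in ACs 759 kb for 54 PADs and 3104 kb for 89 non-PADs. The median non-PAD at these windows was thus more than 5 times the window itself in thymus and below its size in NPCs.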

How the data were processed

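The authors mapped sat4C reads of thymus, ESCs, NPCs and ACs to 4C fragment ends of the mm9 genome, with the Y chromosome left out. No aligner is named in the sources used here. They sorted reads per end into classes, fitted a two-state hidden semi-Markov model to every replicate (mhsmm in R) and merged the calls by vote, settling ties with pooled reads. The deposited values are the words PAD and nPAD in 4 columns, with no other unit. There are 0 replicate columns and no read counts, so depth and replicate error are unknown, and a vote hides disagreement between replicates.

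Ends were placed by the middle of their interval, genes (GENCODE vM1) by their midpoint, and domains were bordered halfway between ends of different calls. Of 2418 autosomal windows, 48 had under 50 ends. Of 374542 autosomal ends, 186925 began with CAATTG (MfeI) and 179335 with CATG (NlaIII) in NCBIM37. The windows named were the 10 with most genes, the 10 with the highest mean share, the 10 with most genes among those without PAD ends, and the 5 with the largest difference each way for ESCs minus thymus, ESCs minus ACs and NPCs minus ACs, with ties in genome order. A window that this rule names is not reported here. The window of *Aldoc*, the histone genes of Chromosome 3 and the longest run were added to those with their calls known. The members, gene lists, GC classes and named genes were chosen with earlier results of these data known. Lists match symbol patterns, and 638 genes in the windows have names of predicted models. The counting was tested on simulated calls with planted domains. Python 3.11.15, numpy 2.4.6, pandas 2.3.3 and matplotlib 3.10.9 were used.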

Additional observations from a re-analysis of the deposited data

How the results depend on the processing

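In 8 counts, 83 of 90 values under 12 alternatives (3 of them added after seeing the data) stayed inside the 95% Wilson interval of the reported share, taken as a scale only, since neighboring windows share domains. The order of thymus below ACs below ESCs below NPCs was the same under all 11 alternatives that hold these 4 columns. Calling a window mostly PAD from 75% of its ends lowered the share to 26.2% in ESCs, 11.03% in ACs, 2.76% in thymus and 1.38% in all 4 kinds of cells. The windows mostly PAD in thymus and not in ESCs were 0.680% with the grid shifted by 0.5 Mb and 0.952% without predicted genes, 1 window each. Without NPCs, 60.7% of the windows were mostly PAD in no kind of cell. No paired analysis was possible because the columns carry no replicates, and for the same reason no replicate could be left out. Shares of windows with few ends move in large steps.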
